A study of Homo sapiens with 28 samples.

Results

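Human chromosome 19 carries the densest clusters of zinc-finger genes in the genome, and the accessible regions of 2 of them are described here in an ovarian cancer line that had adapted to the PARP inhibitor olaparib. The regions were all consensus ATAC-seq peaks of chromosome 19 (GRCh38) whose midpoint lay between 19500 and 24300 kb, on the short arm (19p), or between 52000 and 58600 kb, at the end of the long arm (19q). That rule gave 365 peaks of 105048, with 79 in the 19p cluster and 286 in the 19q cluster. The windows were set by position, but they were chosen by readout in so far as they were proposed after high values had been seen at ZNF66 and ZNF85 in T10 and T160, at ERVV-1 and ZNF665 in T320, and at ZNF492 in T320 against T160. Those values are given below as descriptions, with no test. The peaks that held them are still included in the counts of gained and called members below. The p-values printed for other members come from the same libraries.

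The cells were Kuramochi, an established BRCA2-mutant line of high-grade serous ovarian cancer, and every group shared that background. The 7 adapted populations carry in their name the olaparib dose they had been brought to, in uM: T5, T10, T20 and T40, then T80, T160 and T320. For P10 and P320, cells that had not met the drug before received 10 or 320 uM over 9 days, and C was left untreated. Flow sorting by CD24 and CD44 preceded the assay for C and for the T populations (CD24 low and CD44 high in T), and the labels mention none for the P groups. Sorting and adaptation therefore cannot be told apart between T and P, nor can sorting and drug exposure between P and C. The fraction sorted for C is not given here. If it differed from that of T, sorted fraction and adaptation cannot be told apart between T and C either. Each of the 10 groups had 2 libraries, and nothing in the labels says whether these came from separate cultures, so p-values measure the spread between libraries, which may be technical. The line is 1 genetic background, and each adapted population is a single population.

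Krüppel-associated box (KRAB) zinc-finger proteins bind DNA through arrays of zinc fingers and bring the corepressor TRIM28 and the methyltransferase SETDB1 to their targets, many of which are transposable elements. The genes arose by repeated tandem duplication, so neighbours are often alike in sequence, and the gene bodies themselves are usually packed in H3K9me3 chromatin with open promoters. The 19q window also holds the leukocyte receptor genes, several NLRP genes and the endogenous retroviral envelope genes ERVV-1 and ERVV-2.

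The nearest gene was a zinc-finger gene, or a read-through or divergent transcript of one, for 63 of the 79 peaks in 19p and for 141 of the 286 in 19q. In 19q a further 15 lay nearest to leukocyte receptor genes, 10 nearest to NLRP genes and 120 nearest to other genes. Peaks within 1 kb of a gene end made up 47.1% of the members, against 14.6% of all peaks. The start of a zinc-finger gene lay in a member or within 1 kb of one for 26 genes in 19p and 78 genes in 19q, with read-through and divergent transcripts left out.

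The promoters of the 19p genes are shown because the peaks over them behaved very differently although many of the sequences are alike. Among the 26 zinc-finger promoters of 19p (RefSeq, GRCh38.p14, 250 bases before to 50 after the gene start), global alignment of the 325 pairs gave a median identity of 76.1%, with a range of 48.9% to 91.0%. The motif CCAAT, on either strand, stood in 26 of 26 of them, in 38 of 78 zinc-finger promoters of 19q and in 35.7% of all 27305 promoters of the table. The motif CTTCCGG, the core of an ETS site with its flank, stood on either strand in 19 of 26 in 19p, in 48 of 78 in 19q and in 10.7% of all promoters. Neither motif overlaps the other by its letters. The first 3 promoters below belong to genes whose start peak gained accessibility, ZNF431 and ZNF91 to 19p genes whose start peak did not pass in T320, and ZNF611 to 19q. Capitals mark CCAAT and CTTCCGG on either strand.
ZNF66: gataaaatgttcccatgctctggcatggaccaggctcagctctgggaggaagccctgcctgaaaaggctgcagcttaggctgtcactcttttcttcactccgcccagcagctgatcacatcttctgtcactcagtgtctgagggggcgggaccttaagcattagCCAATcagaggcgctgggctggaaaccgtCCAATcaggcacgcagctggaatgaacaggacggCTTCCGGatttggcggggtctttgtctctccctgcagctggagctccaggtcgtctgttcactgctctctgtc
ZNF85: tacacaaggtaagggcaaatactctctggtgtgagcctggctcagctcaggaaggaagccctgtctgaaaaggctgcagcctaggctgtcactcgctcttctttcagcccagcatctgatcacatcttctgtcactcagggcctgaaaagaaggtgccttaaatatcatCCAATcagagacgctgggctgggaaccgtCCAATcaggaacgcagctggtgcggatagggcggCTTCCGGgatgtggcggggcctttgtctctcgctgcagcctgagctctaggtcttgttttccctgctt
ZNF737: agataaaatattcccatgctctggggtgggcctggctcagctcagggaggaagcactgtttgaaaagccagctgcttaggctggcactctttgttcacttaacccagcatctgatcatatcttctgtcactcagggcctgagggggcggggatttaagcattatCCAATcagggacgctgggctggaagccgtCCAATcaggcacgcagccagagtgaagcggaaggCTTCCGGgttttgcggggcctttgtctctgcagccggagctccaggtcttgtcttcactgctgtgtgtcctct
ZNF431: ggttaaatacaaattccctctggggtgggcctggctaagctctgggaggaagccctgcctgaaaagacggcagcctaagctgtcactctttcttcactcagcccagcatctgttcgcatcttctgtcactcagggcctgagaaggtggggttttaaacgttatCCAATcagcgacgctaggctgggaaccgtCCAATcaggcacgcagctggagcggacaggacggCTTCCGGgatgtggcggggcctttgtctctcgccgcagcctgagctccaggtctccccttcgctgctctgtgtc
ZNF91: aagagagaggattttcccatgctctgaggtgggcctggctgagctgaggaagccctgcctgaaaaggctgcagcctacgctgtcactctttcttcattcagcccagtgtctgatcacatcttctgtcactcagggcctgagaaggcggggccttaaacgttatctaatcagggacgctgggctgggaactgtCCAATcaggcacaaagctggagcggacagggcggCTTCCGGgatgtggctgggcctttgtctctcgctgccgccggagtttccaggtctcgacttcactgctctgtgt
ZNF611: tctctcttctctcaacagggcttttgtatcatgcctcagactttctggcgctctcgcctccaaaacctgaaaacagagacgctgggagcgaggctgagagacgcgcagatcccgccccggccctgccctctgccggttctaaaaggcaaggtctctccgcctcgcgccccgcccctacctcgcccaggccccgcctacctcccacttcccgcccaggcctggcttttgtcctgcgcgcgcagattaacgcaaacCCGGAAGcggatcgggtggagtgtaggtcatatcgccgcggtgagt
ZNF66 (chr19:20776054-20776353, plus strand), ZNF85 (chr19:20923001-20923300, plus strand) and ZNF737 (chr19:20565732-20566031, minus strand) each hold CCAAT at 2 places and CTTCCGG at 1. ZNF431 (chr19:21141790-21142089, plus strand) has the same numbers of both motifs. ZNF91 (chr19:23395422-23395721, minus strand) has 1 of each, and ZNF611 (chr19:52734995-52735294, minus strand) has CTTCCGG at 1 place, read on the other strand, and no CCAAT. Among the 19p zinc-finger starts, CCAAT stood in 8 of the 8 whose peak gained in T320 and in 18 of the 18 others, and CTTCCGG in 6 of 8 and 13 of 18. CpG dinucleotides numbered 8 to 16 (median 9) in the first set and 9 to 18 (median 10.5) in the second. Across 19q the zinc-finger promoters had a median of 25 CpG dinucleotides, against 10 in 19p and 14 in all promoters. Reads may have been split between the 19p promoters that are most alike, and how the authors treated reads with several placements is not given in the sources used here.

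The libraries held between 9627970 and 29699950 counts in peaks. The first library of C and of each T population was shallower than the second, whereas the P libraries were of like depth. As a check of the cell type, 10 of 10 epithelial and serous ovarian markers had a peak at a gene end, with a summed level of 147 to 168 CPM in T320, 419 to 420 CPM in P320 and 248 to 351 CPM in C. A gene-end peak was found for 3 of 6 blood markers, with summed levels of 45.1 to 48.1 CPM in T320, 50.8 to 54.3 CPM in P10, 23.8 to 25.7 CPM in P320 and 22.8 to 28.7 CPM in C. The 2 of 4 endothelial markers with such a peak summed to 3.36 to 4.97 CPM in T320 and 13.8 CPM in both C libraries. The 4 neural markers summed to 73.3 to 96.1 CPM in T320 and 32.9 to 34.7 CPM in C. Single markers did not all follow these sums. By group means, KRT18 was higher in T320 than in C (14.5 and 5.63 CPM), and PAX8 was close to C (27.8 and 30.6 CPM). CD14 (10.7 and 13.4 CPM) and RBFOX3 (7.27 and 8.56 CPM) were lower in T320. The other epithelial and ovarian markers were lower in T320 than in C, and the other blood and neural markers with a peak were higher. The part these differences play in the results below was not tested. Accessibility and DNA copy number both set the counts of a peak, no DNA measurement accompanies these libraries, and a change in copies of a segment cannot be told apart from a change in accessibility across it.

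The 19q cluster took a larger share of the counts in the adapted populations from T10 upwards than in C. The cluster held 0.383% and 0.458% of all counts in the C libraries and 0.421% and 0.430% in T5. The share was 0.660% and 0.703% in T10, 0.770% and 0.868% in T20, and 0.865% and 0.978% in T40. It was 0.829% and 0.914% in T80, 0.769% and 0.734% in T160 and 0.837% and 0.912% in T320. Every library from T10 to T320 was thus above both C libraries, while the T5 libraries lay between them. The persister groups had 0.398% and 0.412% in P10 and 0.476% and 0.473% in P320. P10 lay within the range of C, and P320 just above it.

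The 19p cluster moved less than 19q in proportion from T10 to T320, but more in T5 and P320. Its mean share was 0.0632% in C, 0.0736% in T5 and 0.0817% in P320, against 0.421%, 0.426% and 0.474% in 19q. By library, the 19p share of the counts was 0.0556% and 0.0707% in C, 0.0703% and 0.0769% in T5, and 0.0801% and 0.0872% in T10. T20 had 0.0874% and 0.0952%, T40 0.0868% and 0.102%, and T80 0.0901% and 0.100%. The share was 0.0948% and 0.0968% in T160 and 0.0899% and 0.0943% in T320. P10 had 0.0670% and 0.0677%, inside the range of C, and P320 had 0.0812% and 0.0823%, above it.

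**Figure D1:**
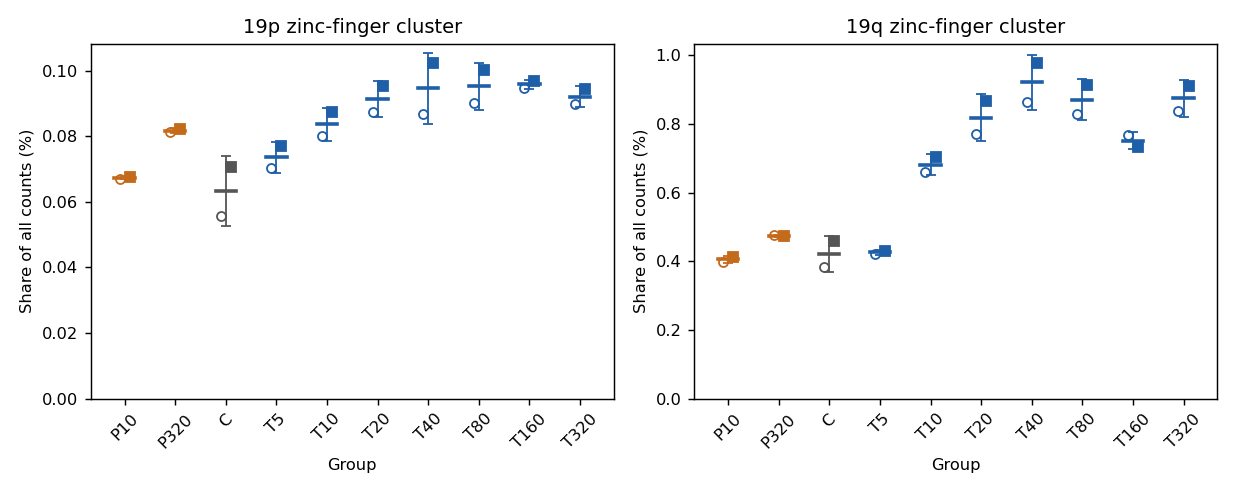
Share of all counts (%, y axis) in the peaks of the 19p and 19q clusters for each group (x axis). Open circles are the first library, filled squares the second, bars the mean and whiskers the SD (n = 2). In 19q every library from T10 to T320 lies above the C libraries, whose shares are 0.383% and 0.458%.

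Peak by peak, the 19q cluster gained in nearly every adapted population. A peak is called here when its fold change from edgeR's quasi-likelihood test was at least 2-fold, that is 1 on the log2 scale, with a Benjamini-Hochberg adjusted p below 0.05 over all 105048 peaks. In T320 against C, 154 members gained and 11 lost, of which 135 and 5 were in 19q and 19 and 6 in 19p. Among all peaks 15% gained and 15.5% lost in that comparison. The median log2 fold change was 0.96 in 19q and 0.44 in 19p, against -0.01 over all peaks. The rest of 19q had a median of -0.64, and the rest of 19p one of 0.25. The rest of 19q was not uniform. On the scale of group means, its 237 peaks between 48500 and 52000 kb, next to the window, had a median log2 ratio of 0.93. The 370 peaks between 44000 and 48000 kb had one of -0.90.

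In T5 against C only 1 peak gained and 3 lost in 19q, whereas 10 gained and 1 lost in 19p, where 4.73% of all peaks gained and 4.46% lost. Scaling by total counts gave 10 gained and 1 lost over both clusters, and TMM from gene-end peaks 11 and 1. Without the second T5 library 5 members were called, against 15 with it. In T10 against C 76 gained and 4 lost in 19q, and 9 gained and 10 lost in 19p, with 8.51% and 9.22% of all peaks gained and lost. The counts for 19q were 113 and 6 in T20, where 11.2% of all peaks gained and 13.3% lost. They were 151 and 2 in T40, with 11.8% and 13.3% of all peaks, and 140 and 5 in T80, with 12.3% and 13.6%. T160 had 114 gained and 8 lost in 19q, against 11% gained and 12.5% lost among all peaks. Across T20, T40, T80 and T160 the 19p cluster had 17, 19, 19 and 18 gained peaks and 8, 10, 6 and 9 lost ones. The median of 19q was -0.05 in T5, and 0.66, 0.85, 1.06, 0.98 and 0.78 in the 5 populations from T10 to T160.

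The short exposures gave few calls in 19q. In P10 against C 10 peaks gained and 7 lost there, and 10 gained and 3 lost in 19p, while 9.32% of all peaks gained and 12.8% lost. In P320 against C 10 gained and 4 lost in 19q, and 17 gained and none lost in 19p, while 3.94% of all peaks gained and 7.91% lost. The calls over both clusters numbered 31 in P320, and 16, 18 or 20 without the first P320 library, the second P320 library or the first C library. Of the 31, 14, 17 and 13 were shared with these sets of calls. In P10 18 of the 30 calls were also made without its first library, and 12 without the second C library. The median of 19p was 0.37 in P320 and 0.00 in P10. Gene-end peaks as a whole had a median of 0.38 in P320, close to the median of 19p. Relative to all gene-end counts, the share of 19p in P320 against C was 0.03 higher on the log2 scale, against 0.38 higher relative to all counts. The direction of the P320 calls turned with the scaling in 19q. In 19p gains still outnumbered losses, while the median changed sign. With TMM from gene-end peaks the median of all peaks in P320 against C was -0.60, 0.822% of them gained and 22.6% lost. In that setting 1 member gained and 15 lost in 19q (median -0.27), and 6 gained and 2 lost in 19p (median -0.09). In P10 the same scaling gave 14 gained and 14 lost over both clusters, against 5.69% and 15.7% of all peaks.

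**Figure D2:**
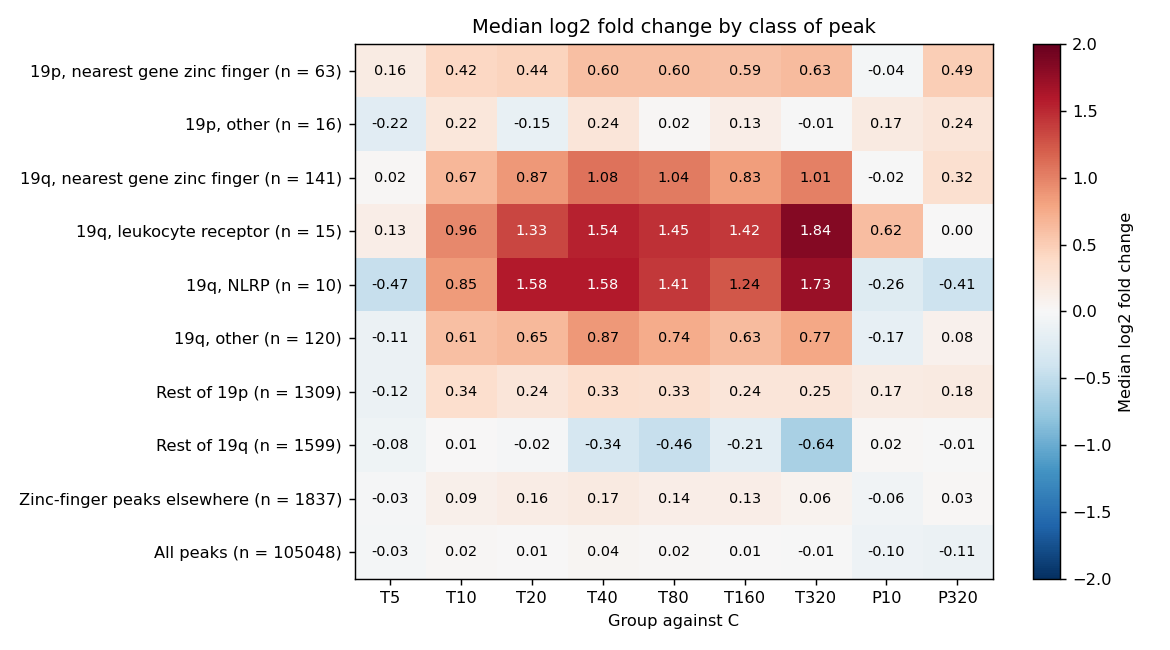
Median log2 fold change against C (colour and printed value) for classes of peak (rows, with the number of peaks) in each group (columns). The 19q classes are positive from T10 to T320 whatever the nearest gene, with 1.84 for the leukocyte receptor peaks in T320, while the rest of 19q is at -0.64. That rest mixes unlike segments: its 237 peaks between 48500 and 52000 kb, next to the window, had a median log2 ratio of group means of 0.93 in T320.

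In 19q the gain was not limited to zinc-finger genes. In T320 the median log2 fold change was 1.01 for the 141 peaks nearest to zinc-finger genes, 1.84 for the 15 nearest to leukocyte receptor genes, 1.73 for the 10 nearest to NLRP genes and 0.77 for the 120 others. Gains numbered 71, 11, 7 and 46 in these classes. Of the gene-end peaks 57 of 135 gained, and of the distal peaks 58 of 126, where 15% of all peaks gained. The shares among all gene-end and all distal peaks are not given here, so the classes are not compared. The 1837 peaks nearest to zinc-finger genes outside the windows had a median of 0.06.

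Along the chromosome, the shift in 19q began outside the window. In bins of 0.5 Mb, the median log2 ratio of T320 over C (group means of CPM, pseudocount 0.5) was -1.32 in the bin that starts at 48000 kb and 0.66 in that at 48500 kb, and stayed between 0.66 and 1.34 up to 52000 kb. It was 1.44 at 52000 kb, 2.14 at 52500 kb and 2.22 at 53000 kb, then 1.76 at 53500 kb and 1.46 at 54000 kb. From 55000 kb to the end of the arm it lay between 0.52 and 0.98. T10 was at 0.52 at 48000 kb and 1.11 at 48500 kb, both above T320, and from 49000 kb on it lay below T320 in every bin, with 1.53 at 53000 kb. T5 did not exceed 0.32 in any of these bins from 48500 kb on. The 237 peaks between 48500 and 52000 kb, which are no members, summed to 5263 and 6490 CPM in T320 and 2595 and 3353 CPM in C. Those between 52500 and 53500 kb, 39 members, summed to 1221 and 1600 CPM in T320, 409 and 405 CPM in P320 and 260 and 355 CPM in C. When the median shift of the peaks between 48500 and 52000 kb was taken off the 19q members, and that of 16000 to 19500 kb off the 19p members, 59 members gained and 32 lost in T320 against C, which is 16.2% and 8.77% of them, against 13% and 12.9% of all peaks in that setting. In 19q alone 41 gained and 24 lost, with a median of -0.02. Under that correction T10 had 20 gained and 34 lost against C, 3 and 14 against T5 and 19 and 55 against P10, and T320 had 45 and 42 against P320. The correction was chosen after the data had been seen.

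**Figure D3:**
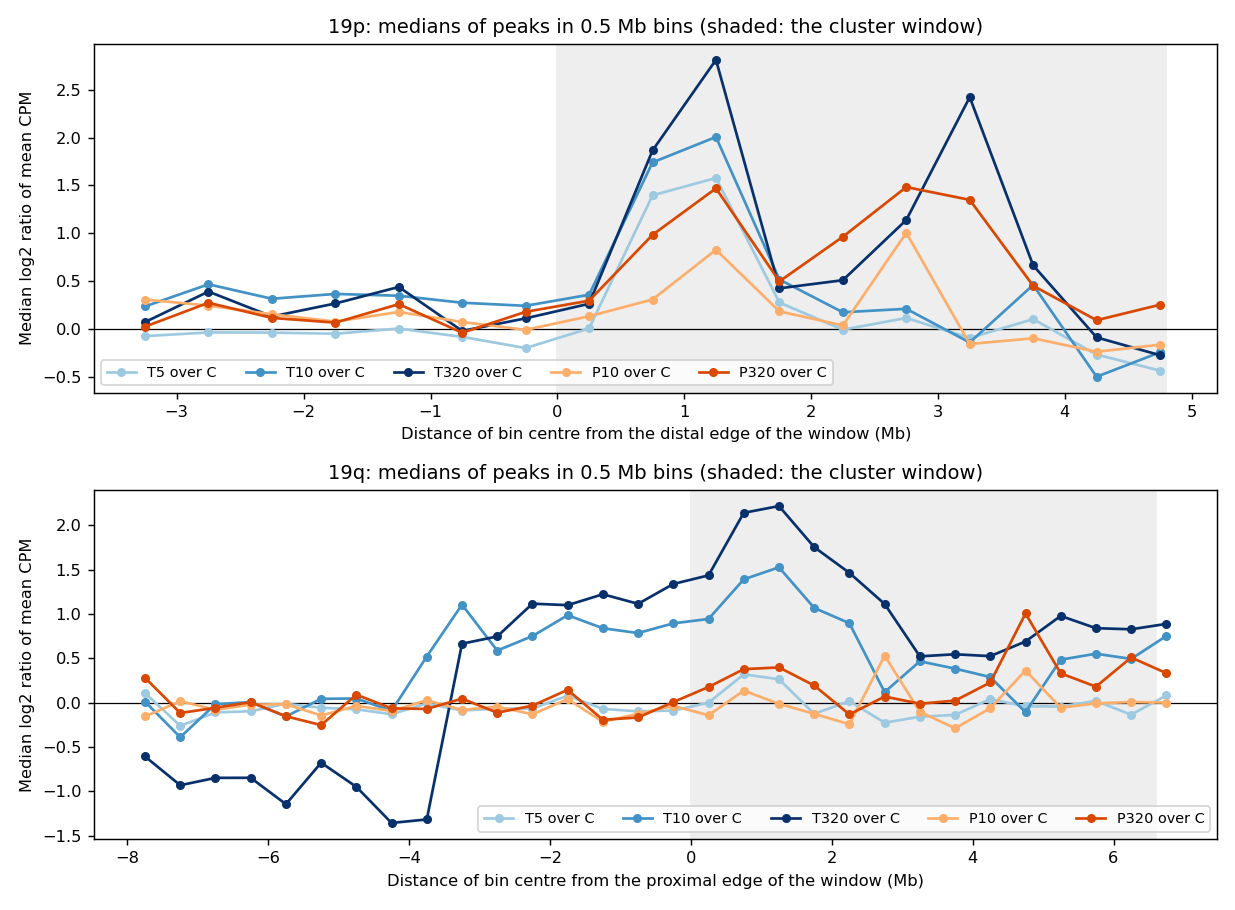
Median log2 ratio of mean CPM over C (y axis) for peaks in 0.5 Mb bins, by distance from the edge of the window at its lower coordinate (Mb, x axis). Lines are T5, T10, T320, P10 and P320, and the window is shaded. In 19q T320 is at -1.32 and then 0.66 in adjacent bins ahead of the window and reaches 2.22 inside it, and in 19p T320 reaches 2.81.

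The strongest gains of 19q lay in or just ahead of the block of zinc-finger genes between 52500 and 53500 kb. A distal peak inside ZNF665 (chr19:53181526-53183744) had 3.04 and 1.51 CPM in C, 4.62 and 2.57 in T5, 16.3 and 17.6 in T10 and 29.5 and 33.5 in T20. It had 32.4 and 31.8 CPM in T40, 31.2 and 38.8 in T80, 45.3 and 36.6 in T160 and 58.5 and 69.3 in T320. Every library from T10 on exceeded both C libraries, and the T320 libraries were the highest of all. The log2 fold change in T320 against C was 4.88 (SE 0.30). In P10 the peak had 8.73 and 9.24 CPM, a log2 fold change of 2.05 over C (SE 0.30). P320 had 3.04 and 3.72 CPM, close to C. No p is given, since the same C libraries entered the values that led to the windows.

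ERVV-1 encodes an envelope protein of an endogenous retrovirus that is expressed in placenta. The peak near its end (chr19:53016716-53017168) had 5.14 and 5.83 CPM in T320, 1.20 and 0.892 CPM in P320 and 0.821 and 0.141 CPM in C. The log2 fold change in T320 against C was 3.67 (SE 0.59), and it ran from 2.73 to 5.22 when single libraries were left out. P10 had 2.03 and 2.01 CPM, above both C libraries and both P320 libraries. A second peak, 8.9 kb from the gene (chr19:53003982-53004983), had 15.8 and 16.1 CPM in T320 against 1.81 and 0.849 CPM in C. No gene-end peak of ERVV-2, PEG3 or TRIM28 was found among the members, and they are not analysed here. Members whose group means followed the ERVV-1 peak closely over the 10 groups lay near PPP6R1, DPRX, ZNF460 and ZNF578, with Pearson's r of 0.93, 0.90, 0.89 and 0.86. These are descriptions, and the groups share depth and the 19q shift.

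Peaks inside ZNF816-ZNF321P (chr19:52935129-52936286) and ZNF578 (chr19:52494376-52495160) followed. The first had 10.4 and 11.8 CPM in T320 against 1.15 and 0.189 CPM in C, a log2 fold change of 4.24 (SE 0.59, edgeR adjusted p = 2.2e-05). The second had 8.73 and 7.66 CPM in T320 against 0.739 and 0.471 CPM in C, a log2 fold change of 3.79 (SE 0.49, edgeR adjusted p = 1.1e-05). In both, no T320 library overlapped C.

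Zinc-finger promoters of that block rose together in T320. ZNF415 averaged 27.7 ± 5.6 CPM in T320 and 3.45 ± 0.12 CPM in C (SD, n = 2 each), a log2 fold change of 3.01 (SE 0.24, edgeR adjusted p = 2.1e-07). ZNF160, ZNF83, ZNF347 and ZNF816 had log2 fold changes of 2.60, 2.59, 2.50 and 2.47, each past the threshold. In P320 only ZNF83 of these 5 passed, at 1.08 (SE 0.24, edgeR adjusted p = 0.0039), and with TMM from gene-end peaks it had 0.62 and was not called. These 5 were picked after their values had been seen, as the gene starts with the largest fold changes in 19q. ZNF274, which recruits SETDB1 to the ends of zinc-finger genes, had a start peak with 42.2 and 45.2 CPM in T320 and 27.7 and 38.2 CPM in C, and did not pass (log2 fold change 0.40, SE 0.17, edgeR adjusted p = 0.067).

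Peaks near leukocyte receptor genes, which are genes of blood cells, gained in T320 like others in that stretch of 19q. On the scale of group means, the 46 peaks between 53500 and 54500 kb that lay nearest to no zinc-finger gene had a median log2 ratio of 1.59, and no test compared the classes. A peak 4.6 kb from VSTM1, an inhibitory receptor of myeloid cells (chr19:54035664-54036230), had 6.76 and 9.19 CPM in T320 and 0.565 and 0.149 CPM in P320. Its log2 fold change between them was 4.45 (SE 0.51, edgeR adjusted p = 2e-06). C had 1.07 and 0.377 CPM there. The summed blood markers were also higher in T320 (45.1 to 48.1 CPM) than in P320 (23.8 to 25.7 CPM) and C (22.8 to 28.7 CPM), with the highest level in P10 (50.8 to 54.3 CPM), and their part in this result was not tested. Peaks nearest to LILRA6, LILRA4 and OSCAR had log2 fold changes in T320 against C of 2.11, 1.79 and 1.85, all called, and the peaks nearest to FCAR and NCR1 had -0.12 and 0.84 and were not. The 5 peaks nearest to NLRP12, a member of the NOD-like receptor family, all gained, by 1.87 to 2.40 on the log2 scale.

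Losses in 19q were rare. At the start of EPS8L1, an EPS8-related gene expressed in epithelia (chr19:55075074-55076593), T320 had 8.65 and 2.96 CPM, P320 9.74 and 10.1 CPM and C 18.8 and 23.1 CPM. All T320 and P320 libraries lay below both C libraries. The log2 fold change was -1.92 in T320 (SE 0.38, edgeR adjusted p = 0.0006) and -1.08 in P320 (SE 0.36, edgeR adjusted p = 0.042). In P10 a peak 12 kb from SBK3 (chr19:55557701-55558702) fell, with 3.0 and 2.14 CPM in P10 against 6.48 and 9.34 CPM in C (log2 fold change -1.63, SE 0.32, edgeR adjusted p = 0.00096). A peak inside ZNF836 (chr19:52156645-52157814) had a log2 fold change of -1.30 in P10 (SE 0.28, edgeR adjusted p = 0.0018), while a peak 4.5 kb from ZNF805 (chr19:57267236-57267690) gained there, with 4.63 and 5.23 CPM in P10 against 1.23 and 1.46 CPM in C.

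In 19p the gain was highest over a short stretch. All 10 members between 20000 and 21000 kb were nearest to zinc-finger genes, and they summed to 150 and 197 CPM in T320, 90.7 and 94.3 CPM in P320 and 32.5 and 49.4 CPM in C. T5 already had 94.8 and 111 CPM, and P10 had 55.6 and 56.4 CPM. Outside it, the 21 members between 21000 and 23000 kb summed to 196 and 216 CPM in T320 and 112 and 160 CPM in C, which do not overlap, and 19 of them had a T320 mean above that of C (median log2 ratio 0.44). The 26 members between 23000 and 24300 kb summed to 220 and 263 CPM in T320 and 160 and 238 CPM in C, which overlap. The 22 members between 19500 and 20000 kb summed to 267 and 321 CPM in T320 and 213 and 293 CPM in C, which overlap. These limits were drawn after the values had been seen.

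The peak at the start of ZNF66 (chr19:20776046-20777189) had 1.89 and 1.08 CPM in C, 6.22 and 6.54 in T5, 11.1 and 12.8 in T10 and 15.1 and 20.0 in T20. T40 had 11.5 and 18.6 CPM, T80 13.1 and 14.3, T160 15.5 and 16.2 and T320 12.5 and 16.2. Every adapted library exceeded both C libraries, and the libraries from T20 to T320 lay between 11.5 and 20.0 CPM, in no order of dose. The log2 fold change was 2.16 in T5 (SE 0.30), 3.07 in T10 (SE 0.29) and 3.34 in T320 (SE 0.29). P10 had 3.26 and 3.53 CPM and P320 7.09 and 6.32 CPM, both above C. The log2 fold changes were 1.26 in P10 (SE 0.31) and 2.23 in P320 (SE 0.29), given as descriptions.

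ZNF85 and ZNF737 had the same pattern at their starts. ZNF85 (chr19:20922716-20924017) had 11.2 and 17.7 CPM in T320, 6.95 and 7.51 CPM in P320, 3.97 and 4.45 CPM in P10 and 1.07 and 2.17 CPM in C. ZNF737 (chr19:20564965-20566207) had 17.1 and 20.6 CPM in T320, 8.01 and 6.24 CPM in P320 and 1.72 and 2.78 CPM in C, with a log2 fold change of 3.02 in T320 (SE 0.26, edgeR adjusted p = 3.9e-07). The starts of ZNF90, ZNF682 and ZNF486 gained 2.01, 1.93 and 1.76 on the log2 scale in T320. The next starts along the chromosome did not pass, with 0.76 at ZNF430 and 0.38 at ZNF431, whose promoter is 81.6% identical to that of ZNF66.

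ZNF492 and ZNF730 gained in T320. The start of ZNF492 (chr19:22633808-22634977) had 1.56 and 0.566 CPM in C and no more than 2.21 CPM in any library from T5 to T160, but 7.71 and 8.07 CPM in T320. P320 had 3.92 and 3.05 CPM and P10 1.15 and 0.654 CPM. T320 was above all other libraries, with a log2 fold change of 2.28 against T160 (SE 0.50). The start of ZNF730 (chr19:23116678-23117959) had 7.79 and 12.8 CPM in T320 against 1.48 and 0.707 CPM in C, a log2 fold change of 3.32 (SE 0.38, edgeR adjusted p = 3.6e-06). T10 had 2.40 and 1.95 CPM there. A peak 30 kb from ZNF429 (chr19:21474394-21475329) gained in P320, with 5.08 and 5.13 CPM against 0.985 and 1.04 CPM in C (log2 fold change 2.32, SE 0.43, edgeR adjusted p = 0.0011), and had 2.74 and 0.986 CPM in T320.

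The largest losses in 19p lay between genes at its centromeric end. Of the losses named below, only the first lay within 50 kb of ZNF91, a repressor of SVA retrotransposons. A peak 7.9 kb from ZNF91 (chr19:23403406-23404272) had 0.914 and 0.732 CPM in T160 against 3.78 and 10.0 CPM in C, a log2 fold change of -3.09 (SE 0.48, edgeR adjusted p = 0.00012). The C libraries differ by more than 2-fold, but both exceed every adapted library. A peak with no gene within 50 kb (chr19:23554525-23554972) had 0.0729 and 0.117 CPM in T10, 3.48 and 3.05 CPM in P10 and 2.46 and 5.37 CPM in C. Its log2 fold change was -5.21 in T10 against C (SE 0.89, edgeR adjusted p = 0.00043). In T320 it had 1.80 and 2.55 CPM. Nearby, the peak at chr19:23509521-23510747 had 0.802 and 0.625 CPM in T10 against 7.39 and 6.93 CPM in C, and the peak at chr19:23548520-23550729 had 3.06 and 1.21 CPM in T10 against 17.6 and 17.7 CPM in P10. The start of ZNF91 itself did not pass in T320, at 0.67.

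**Figure D4:**
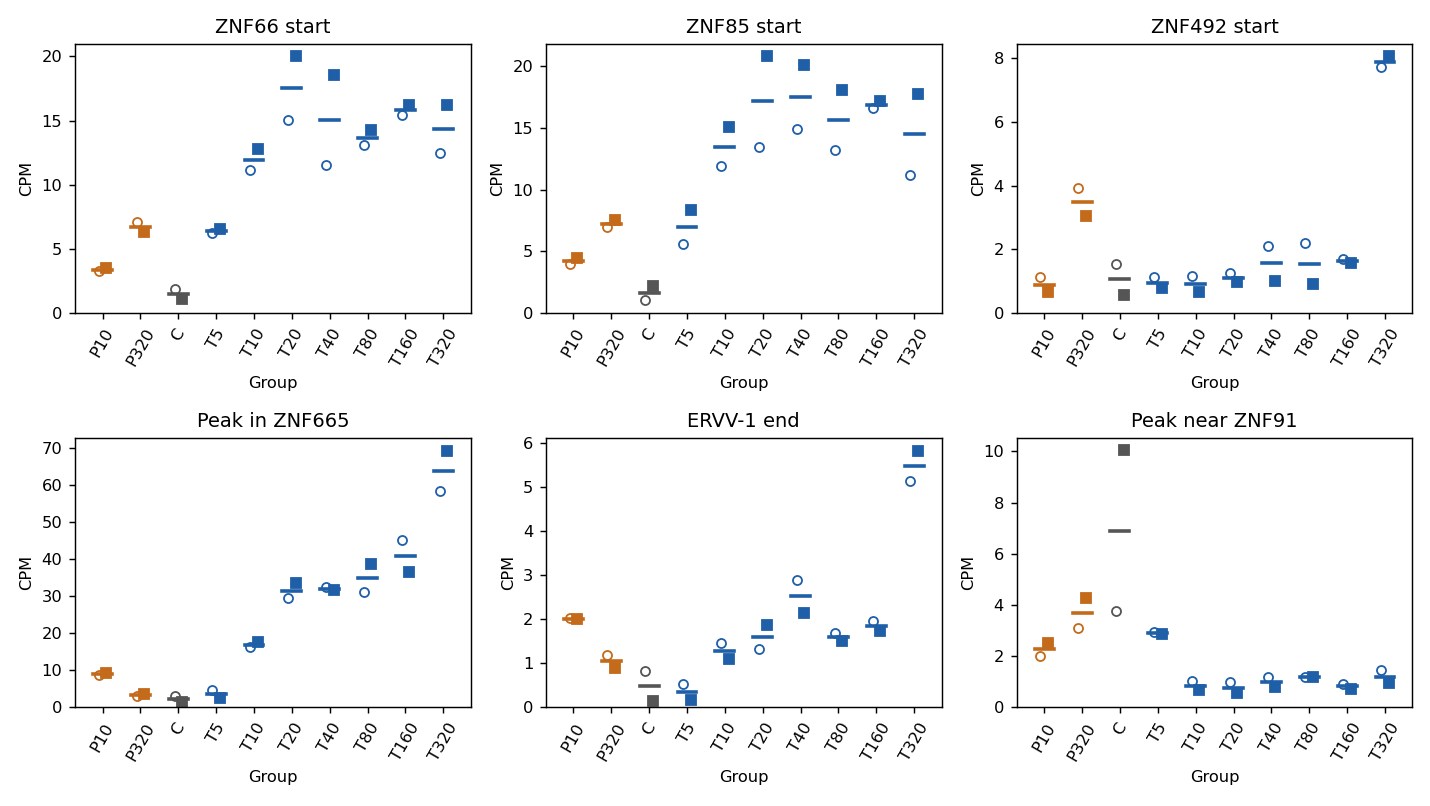
CPM (y axis) of 6 peaks in each group (x axis), with the first library as an open circle, the second as a filled square and the mean as a bar. ZNF66 and ZNF85 rise from T5 on, the ZNF665 and ERVV-1 peaks are highest in T320, ZNF492 is high in T320 alone among the T populations, and the ZNF91 peak is lower in every adapted library than in C.

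Among the steps between neighbouring doses, that between T5 and T10 had the most calls in 19q, but levels differed beyond it as well. The 39 members between 52500 and 53500 kb summed to 368 and 407 CPM in the T5 libraries and to 753 and 964 CPM in T10. T20 had 1134 and 1496 CPM, and T40 1289 and 1714 CPM. Both T20 libraries exceeded both T10 libraries, and T40 overlapped T20. In T10 against T5, 71 members gained, all in 19q, and 3 lost, all in 19p, while 2.16% of all peaks gained and 1.2% lost. Without the second T5 library 19 calls were made, without the second T10 library 23, and without the first T5 library 43. A peak inside ZNF765 (chr19:53424988-53425446) had 3.64 and 3.13 CPM in T10 against 0.237 and 0.661 CPM in T5 (log2 fold change 2.80, SE 0.51, edgeR adjusted p = 0.004). In T20 against T10 2 members were called, near ZNF429 and ZFP28, with 0.543% of all peaks called. Of these calls 1 was made without the first T10 library and 0 without the second T10 or the second T20 library. The steps to T40, T80 and T160 gave no call among members or, at 0%, among all peaks by edgeR, and DESeq2 gave none among members. At an unadjusted p below 0.05 there were 19, 8 and 26 members, or 5.21%, 2.19% and 7.12%, against 5.62%, 3.98% and 7.72% of all peaks. In T320 against T160 5 members gained and 1 lost, against 1.52% and 2.34% of all peaks, and no call was left without the second T160 or the second T320 library. Over the 7 adapted populations, 21 members rose with the logarithm of the dose by at least 0.25 log2 units a doubling and none fell, while 3.37% of all peaks rose and 2.35% fell. The largest slopes were at ZNF578 (0.57, SE 0.10, edgeR adjusted p = 0.0095) and near ZNF460 (0.54, SE 0.08, edgeR adjusted p = 0.0059). Calls in the trend numbered 3 without T320, 7 without T10, 13 without T5 and 33 without T160.

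At the same dose, the adapted and the short-exposure groups differed in 19q, and they differ in sorting as well. The 237 peaks between 48500 and 52000 kb, which are no members, also differed. They summed to 5263 and 6490 CPM in T320 and 3170 and 3080 CPM in P320. In T10 against P10, 112 members gained and 21 lost, 103 and 8 of them in 19q, against 17.8% and 15.1% of all peaks. In T320 against P320, 133 gained and 11 lost, 122 and 1 in 19q, against 19.7% and 14.5% of all peaks. A peak inside ZNF331 (chr19:53504386-53505410) had 4.81 and 5.63 CPM in T10 against 1.06 and 0.915 CPM in P10 (log2 fold change 2.40, SE 0.30, edgeR adjusted p = 9.4e-06). The 19p cluster was closer, with 11 gained and 10 lost in T320 against P320 and a median of 0.06. With TMM from gene-end peaks these were 16 and 3, with a median of 0.51, beside 29.7% gained and 5.97% lost and a median of 0.48 over all peaks. A peak 28 kb from ZNF254 (chr19:24003923-24005071) was lower in T320, at 2.83 and 1.03 CPM against 8.65 and 9.85 CPM in P320 (log2 fold change -2.32, SE 0.55, edgeR adjusted p = 0.0018). A peak inside PBX4 (chr19:19608076-19609084), a homeobox gene, was lower in T320 as well, at 2.31 and 1.57 CPM against 6.07 and 5.46 CPM in P320. In P320 against P10, 13 members gained and 14 lost, against 4.1% and 9.68% of all peaks, and 12 to 14 of these 27 were also called when any 1 of the 4 libraries was left out. Scaling by total counts gave 7 gained and 15 lost there, and TMM from gene-end peaks 4 and 21.

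Genes that encode the silencing machinery of these clusters were read at their own ends. Of 20 listed, 19 had a gene-end peak, among them SETDB1, the heterochromatin proteins CBX1, CBX3 and CBX5, and the HUSH members TASOR, MPHOSPH8 and PPHLN1. None was called in T320 or T10 against C, and the median log2 fold change in T320 was 0.25. Among all peaks 15% gained and 15.5% lost in T320, and 8.51% and 9.22% in T10. SETDB1 averaged 30.3 CPM in T320, 39.2 CPM in P320 and 41.0 CPM in C. In P320 SUV39H1 and SUV39H2, which methylate H3K9, were the 2 that gained and none lost, and in P10 1 lost, ATRX. Of all peaks 3.94% gained and 7.91% lost in P320, and 9.32% and 12.8% in P10. With TMM from gene-end peaks SUV39H1 and SUV39H2 had 0.55 and 0.58 in P320 and were not called. PPHLN1 and ATRX were lost in P320 and in P10 in that setting, where 22.6% and 15.7% of all peaks were lost.

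At the edges of the windows, the first member of 19q, near ZNF615, had means of 29.8 CPM in T320, 8.60 CPM in P320 and 8.81 CPM in C. The last peak ahead of it, near ZNF350, had 23.3, 8.26 and 8.22 CPM in the same groups. On 19p the first member, near TSSK6, had 17.3, 15.2 and 12.2 CPM, and the peak ahead of it, near GATAD2A, had 15.96, 9.99 and 8.49 CPM.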

How the data were processed

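ATAC-seq measures open chromatin by transposase insertion. Per the labels' protocols, about 50000 cells a sample went through Omni-ATAC and paired-end sequencing. The authors deposited a table of read counts per consensus peak, with no normalization, for 20 libraries of 10 groups; the other 8 labelled samples are not analysed here. Per the submitters' processing notes the tools were HOMER 4.1, MACS2, DESeq2, deepTools 3.1 and 3.5.1, Bowtie2, SAMtools, Picard and Trim Galore, on hg38; their roles, and how peaks were merged, are not given in the sources used here. Coordinates are as deposited. Members and lists were chosen with earlier results of these data known.

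Counts were scaled by TMM and fitted over all 105048 peaks and 20 libraries with edgeR 4.0.16 (robust quasi-likelihood test, Benjamini-Hochberg adjustment, R 4.3.3); the low-count filter removed no peak. Calls needed an adjusted p below 0.05 and a change of 1 or more in log2. The trend used counts summed per population, regressed on log2 dose, with a slope of at least 0.25. CPM values use TMM library sizes. SE is the log2 fold change over the root of F. Gene names come from RefSeq GRCh38.p14 (within 50 kb, gene ends and gene starts within 1 kb). Of the peaks that were called, those named had at least 2 CPM in the higher group, no overlap between libraries, and a call kept, within 1.5 times, with each library left out: 5 gains and 5 losses per cluster in T320 against C and 2 of each elsewhere, plus listed genes. Fits were tested on simulated data. Alternatives covered scaling, offsets by window and flank, filters, the replicate block, DESeq2, window edges and each library left out. Of the members most like the ERVV-1 peak, 1 is not reported here.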

Additional observations from a re-analysis of the deposited data

How the results depend on the processing

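Depth limits the distal members: the shallowest library had 9627970 counts in peaks, and many distal members lie near 1 CPM. Copy number was not measured, so settings that take a regional shift off the members ask a different question. Causes of the changes below were not tested.

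With the median shift of a 5 Mb window taken off, the members called against C fell to 42, 59, 61, 65, 58 and 67 in the populations from T10 to T320, in order of dose, of which 16, 30, 33, 35, 29 and 38 had gained, and to 16 in P320, 8 of them gained. They fell to 8 in T10 against T5, 1 in T20 against T10, 3 in T320 against T160, 61 in T10 against P10 and 50 in T320 against P320. With the neighbouring segments' shift taken off, a setting chosen after seeing the data, the counts in the T10 to T320 comparisons with C were 54, 86, 89, 85, 82 and 91, with 20, 49, 55, 55, 52 and 59 gained. They were 17 in T10 against T5, 2 in T320 against T160, 74 in T10 against P10 and 87 in T320 against P320. With the shift of the rest of the arm taken off, 262 were called in T320 against C, 22 against T160 and 224 against P320. Without the fold minimum the counts were 24 for T5, 163 for T10, 231 for T20 and, at the top dose, 250 for T320, 64 in P10 and 58 in P320 against C, 4 in T20 against T10, 11 in T320 against T160, 227 in T10 against P10 and 61 in P320 against P10. TMM from gene-end peaks gave 42 in T10 against T5, and DESeq2 gave 9 in T20 against T10. Relative to gene-end counts, the P320 share against C was 0.031 (log2) in 19p and -0.17 in 19q, against 0.38 and 0.18.

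With single libraries left out, the calls against C ranged from 5 to 21 for T5, 77 to 125 for T10, 124 to 185 for T20 and 153 to 214 for T40. The ranges were 143 to 200 for T80, 125 to 178 for T160, 148 to 204 for T320, 19 to 42 for P10 and 16 to 44 for P320. They ranged from 19 to 75 in T10 against T5, 0 to 2 in T20 against T10, 0 to 8 in T320 against T160, 103 to 159 in T10 against P10, 120 to 153 in T320 against P320, 13 to 17 in P320 against P10, and 3 to 33 in the trend when a population was left out.

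Replicate numbers are shared across groups but with 2 pairs do not establish pairing. First-minus-second differences correlated between C and T5 at 0.40 and between C and P320 at -0.09. With the replicate block 26 members were called in T5 against C, 12 in T20 against T10 and 13 in T320 against T160; the block moved no other count by over 1.5 times. Among named peaks, the ZNF765 peak in T10 against T5 lost its call under the window offset (1.81) or the neighbouring segments' shift (1.96), and the ZNF578 slope was not called without T320.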
